A study of Mus musculus with 6 samples.

Results

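Splicing factors and heterogeneous nuclear ribonucleoproteins were compared between spermatogonial stem cells (SSC) and embryonic stem cells (ESC) of the mouse. The set was chosen by gene symbol, with earlier results of these data known. It took every gene on the array whose symbol begins with Srsf, Hnrnp, Sf3a, Sf3b, Snrp or Lsm followed by the family's number or letter, and left out Snrpn. The rule found 60 genes and 141 probes, of 19057 genes and 45281 probes in all. Of the 60 genes, 52 had at least 1 of their probes detected on 3 or more of the 6 arrays (a detection p under 0.01) and were measured, with 100 such probes. The other 8, Hnrnpa3, Hnrnph2, Hnrnpu, Lsm11, Sf3b1, Snrpb2, Snrpe and Srsf12, had 11 probes, each detected on 1 array at most, and have no value here.

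The series holds 3 arrays of SSC, labelled with the C57BL/6 strain, and 3 of ESC, labelled as R1/E, an established mouse line. No transgene, treatment, sort, culture or age is given in the sources used here, and the ESC group is a single line. Strain and cell type change together and cannot be told apart. Each array measured biotin-labelled cRNA from total RNA on an Illumina bead array, with 1 mean brightness per probe. The labels number the replicates and say nothing of where each came from, so the spread behind every p-value is that between these arrays and may be technical.

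Introns are removed by the spliceosome, which is built from small nuclear ribonucleoproteins (snRNPs), particles of a short nuclear RNA and its proteins. Each spliceosomal RNA carries a ring of Sm or Lsm proteins. SR proteins (the Srsf genes) mostly promote the use of the exons they bind, while hnRNP proteins coat nascent RNA and often repress nearby sites, and the balance between them shapes alternative splicing. Many SR and hnRNP genes also limit their own level through exons that send the transcript to decay. The testis is known for extensive alternative splicing.

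Values below are normalized log2 intensities, differences are SSC minus ESC on that log2 scale, and each gene stands for its brightest kept probe unless another is named. A level is read only against the same probe on another array. To be called, a gene needed an adjusted p under 0.05 in limma, taken over all 17435 kept probes.

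Both cell types expressed this machinery, 26 of the 52 genes were called in 1 direction or the other, and 48 of the 52 had fitted differences under 2-fold. The 26 called genes make up 50% of the set, where 74.4% of the 10024 genes measured were called. Higher in SSC were 14 genes (26.9%, against 37.9% of all genes), and 12 were lower (23.1%, against 36.5%). A called gene had a fitted difference of at least 2-fold in 4 cases, Srsf9, Hnrnpr, Hnrnpf and Lsm5 (7.69%, against 33.2% of all genes by the same rule). Hnrnpr was not detected in ESC, and its bound of 1.64-fold does not reach 2-fold. The 3 SSC values and the 3 ESC values did not overlap for 25 genes (48.1%, against 76.9%). The median difference was −0.11 over the 52 genes, where all genes had 0.00364, and the median absolute difference was 0.287, where all genes had 0.675. Differences in the set ran between −1.17 and 1.34, and in all genes between −7.22 and 8.65. The set had a median standard error of 0.128, and all genes had 0.13. The limma fit draws these errors toward a spread common to all probes, so their closeness does not show equal precision. Since the samples are bulk RNA, fewer cells of a type and less RNA per cell cannot be told apart in any of these differences.

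Of the 52 genes, 48 (92.3%) were detected on all 6 arrays, against 76.7% of all genes. Within genes detected on all 6 arrays, 25 of 48 members were called (52.1%), against 71.5% of 7685 genes, and the median absolute differences were 0.313 in the set and 0.588 in those genes. Without a background correction, the distance in size was smaller: the median absolute difference was 0.28 in the set and 0.363 in all genes, with 53.8% of the set called and 73.9% of all genes. With no detection filter, which adds the genes that had not passed it, the order in size turned. The median absolute difference was then 0.246 in the set and 0.220 in all genes, with 36.7% of the set called and 40.3% of all genes. Under scaling on array medians the median of all genes was 0.19 and that of the set −0.070, and 11 genes were called higher and 15 lower, against 14 and 12 here. The count higher in SSC was 9 without SSC replicate 2 and also 9 without SSC replicate 3.

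**Figure D1:**
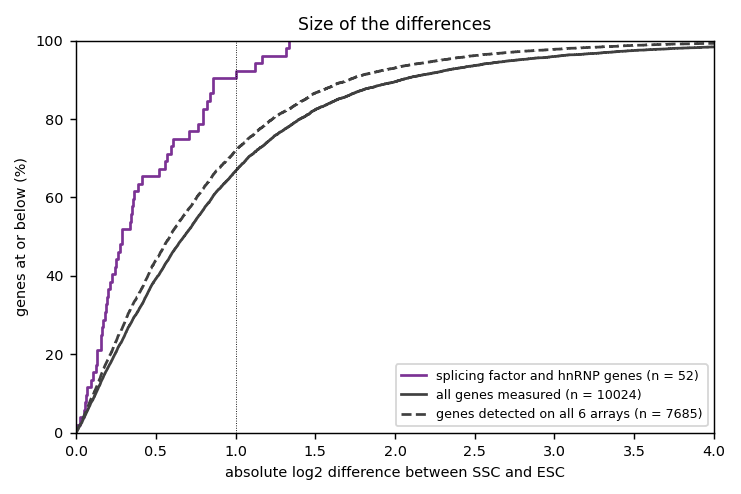
Cumulative share of genes (vertical axis, percent) by absolute log2 difference between SSC and ESC (horizontal axis, shown up to 4), for the 52 splicing factor and hnRNP genes, all 10024 genes measured and the 7685 genes detected on all 6 arrays. The curve of the 52 genes lies left of both others and ends at 1.34, and the dotted line marks a 2-fold difference.

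The labels were checked against marker genes, and the same samples differed in several cell types. Of 10 embryonic stem cell markers, 10 were lower in SSC, and their summed linear intensity was 1968 to 2167 in SSC and 17458 to 18405 in ESC. Esrrb, Nanog and Tdgf1 of this list were undetected on every SSC array and passed the filter through ESC alone. Of 12 spermatogonial stem cell markers, 11 were higher in SSC and 0 lower, with sums of 10298 to 10632 in SSC and 1564 to 1656 in ESC. The 11 count Nanos3 and Ret, which were undetected on every ESC array and passed the filter through SSC alone. Sertoli cell markers were higher for 6 of 8 measured (4343 to 4707 in SSC, 1451 to 1577 in ESC), and fibroblast and peritubular myoid markers for 9 of 11 (7882 to 8838 in SSC, 3089 to 3282 in ESC). The exceptions in the Sertoli list were Dhh, called lower (−0.37), and Aard, not called (0.24). In the fibroblast list they were Tagln, lower and undetected on every SSC array, and the myoid marker Acta2, not called (−0.22). Amh, Fshr, Gata4 and Sox9 of the Sertoli list and Dcn, Lum, Col1a2, Col3a1, Col6a1, Col6a2 and Myh11 of the fibroblast list were undetected on every ESC array. They passed the filter through SSC alone, so a call lower in SSC was hardly possible for them. Bounds of those in the Sertoli list ran from 1.20-fold for Gata4 to 12.6-fold for Amh. Of 5 measured macrophage and leukocyte markers, 3 were higher and 1 lower, with sums of 205 to 231 in SSC and 1002 to 1074 in ESC, where the lower gene was Laptm5 (−3.72). C1qc, Fcer1g and Lyz2 of this list were undetected on every ESC array and passed the filter through SSC alone. Proliferation genes were lower in SSC for 14 of 14 measured, with a median of −1.28 and sums of 7117 to 8695 in SSC and 14865 to 15181 in ESC. The part of these cell types and of proliferation in the values below was not tested.

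**Figure D2:**
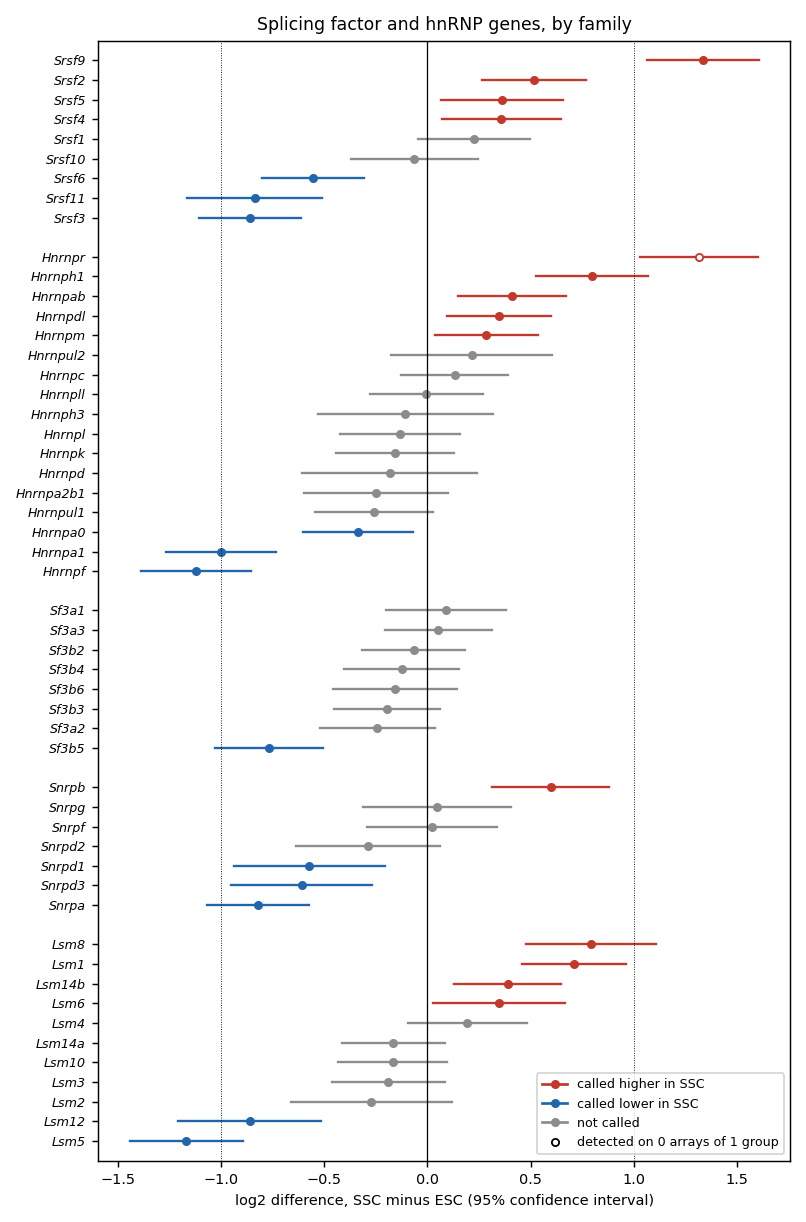
Log2 difference, SSC minus ESC, of each of the 52 measured genes by family, with its 95% confidence interval from the limma fit (3 arrays per group), in red where called higher in SSC, in blue where called lower and in grey where not called. An open point marks a gene detected on 0 arrays of 1 group, which is Hnrnpr, whose fitted 1.32 has a bound of 0.72. Of the genes detected in both groups, Srsf9 (1.34) lies farthest to the right and Lsm5 (−1.17) and Hnrnpf (−1.12) farthest to the left, while 7 of the 8 Sf3 genes have intervals that include 0.

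Promoter windows were searched for motifs upstream of the starts of the set's genes, whose calls ran in both directions. No motif was in every window. RefSeq windows of the 250 bases upstream of an annotated start (build GRCm38.p6) were matched by symbol for 43 of the 52 genes, 58 windows in all, several of which overlap within 1 gene. Motifs searched for on both strands were TATAAA for the TATA box, CCAAT for the box of that name, CCGGAAG for the core of ETS family sites, CACGTG for the E-box and GGGCGG for the GC box. None of these contains another. The ETS core was in 17 windows of the set (29.3%), against 13.2% of the 10431 windows of all genes measured, and the CCAAT box in 28 (48.3%), against 35.4%. A GC box was in 39 (67.2%, against 58.4%), a TATA box in 5 (8.62%, against 6.50%) and an E-box in 4 (6.90%, against 8.50%). The median number of CpG dinucleotides per window was 21.5 in the set and 15 in all genes. Split by call, there were 19 windows of 12 genes higher in SSC, 14 of 9 genes lower in SSC and 25 of 22 genes not called. The counts that follow are of windows, so a gene with several windows can count more than once. In that order the ETS core was in 3, 5 and 9 of them, the CCAAT box in 7, 7 and 14, the GC box in 16, 11 and 12, the TATA box in 2, 2 and 1 and the E-box in 0, 3 and 1. These matches are descriptions of letters and not of binding.

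4 of these windows are shown, those of the genes with the largest differences in either direction among those detected on all arrays, Srsf9 and Lsm5, and of an SR and an hnRNP gene lower on all their kept probes, Srsf3 and Hnrnpa1, 5′ to 3′ on the gene's strand. Capitals mark matches to these motifs. Srsf9 is at chr5:115326927-115327176 (plus strand), Srsf3 at chr17:29032410-29032659 (plus strand), Hnrnpa1 at chr15:103240147-103240396 (plus strand) and Lsm5 at chr6:56704700-56704949 (minus strand). GC boxes are the only matches in the Srsf9 window, whereas that of Hnrnpa1 has 4 CCAAT boxes beside 2 GC boxes and that of Lsm5 holds a CCAAT box, an ETS core and a GC box. Srsf3 has a TATA box and a CCAAT box.
Srsf9: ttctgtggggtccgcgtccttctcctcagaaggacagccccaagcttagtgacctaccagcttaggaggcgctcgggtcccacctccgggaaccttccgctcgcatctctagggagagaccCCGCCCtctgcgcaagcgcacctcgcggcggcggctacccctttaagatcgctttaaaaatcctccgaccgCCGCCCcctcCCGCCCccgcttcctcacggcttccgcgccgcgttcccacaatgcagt
Srsf3: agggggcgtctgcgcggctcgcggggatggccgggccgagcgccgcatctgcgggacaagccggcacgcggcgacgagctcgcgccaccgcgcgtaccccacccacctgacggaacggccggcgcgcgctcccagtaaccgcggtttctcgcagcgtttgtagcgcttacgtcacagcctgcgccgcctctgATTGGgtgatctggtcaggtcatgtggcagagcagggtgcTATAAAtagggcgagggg
Hnrnpa1: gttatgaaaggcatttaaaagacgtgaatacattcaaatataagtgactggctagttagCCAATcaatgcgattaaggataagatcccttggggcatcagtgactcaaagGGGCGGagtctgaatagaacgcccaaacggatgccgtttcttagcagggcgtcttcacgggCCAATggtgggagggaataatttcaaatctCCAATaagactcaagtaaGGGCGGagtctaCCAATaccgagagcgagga
Lsm5: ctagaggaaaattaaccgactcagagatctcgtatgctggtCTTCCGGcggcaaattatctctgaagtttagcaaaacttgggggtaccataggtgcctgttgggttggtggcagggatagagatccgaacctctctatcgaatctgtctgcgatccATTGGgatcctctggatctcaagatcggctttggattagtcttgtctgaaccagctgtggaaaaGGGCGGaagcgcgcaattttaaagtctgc

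SR proteins split by gene. Of 9 measured Srsf genes, 4 were higher in SSC, 3 lower and 2 not called, and the median was 0.23. Of all genes 37.9% were higher and 36.5% lower, so calls in both directions within a family are usual here. Srsf9, an SR protein with a short RS domain, had the largest difference of the whole set. Its level was 11.68, 11.76 and 11.76 in SSC, against 10.20, 10.48 and 10.52 in ESC. Every SSC array lay above every ESC array, and the difference was 1.34 ± 0.12 (SE, adjusted p = 6.39e-07). Srsf2, a nuclear speckle protein that promotes exon inclusion, stood at 12.32, 12.38 and 12.51 in SSC, against 11.92, 11.93 and 11.82 in ESC. The groups did not overlap and differed by 0.52 ± 0.12 (SE, adjusted p = 0.00128), although the call was lost when its 3 kept probes were averaged (0.21) and under scaling on array medians (0.053).

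Srsf5 and Srsf4, SR proteins found in nuclear speckles, were closer between the groups. Srsf5 measured 10.15, 10.43 and 10.41 in SSC, against 9.80, 9.92 and 10.19 in ESC. SSC replicate 1 lay below the highest ESC array, so the groups overlapped, and the difference was 0.36 ± 0.14 (SE, adjusted p = 0.0295). For Srsf4 the values were 9.76, 10.13 and 10.17 in SSC, against 9.63, 9.72 and 9.65 in ESC. They did not overlap, with a difference of 0.36 ± 0.13 (SE, adjusted p = 0.0275). Both calls were lost when SSC replicate 2, SSC replicate 3 or ESC replicate 1 was left out, that of Srsf5 also without ESC replicate 2 and when its kept probes were averaged (0.14), and that of Srsf4 also without ESC replicate 3.

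In the other direction, Srsf3, a small SR protein that also takes part in mRNA export, was lower in SSC. Its array values were 7.01, 6.99 and 6.94 in SSC, against 7.91, 7.74 and 7.88 in ESC. No SSC array reached an ESC array, and the difference was −0.86 ± 0.11 (SE, adjusted p = 1.67e-05), with its other kept probe at −0.93. Srsf11, an SR-related protein of the spliceosome, read 8.69, 8.57 and 8.91 in SSC, against 9.32, 9.50 and 9.86 in ESC. Here too the groups were apart, by −0.84 ± 0.15 (SE, adjusted p = 0.000252). Its next probe was at −0.76, and its dimmest at −0.12 was not called.

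Srsf6 was lower by its brightest probe, at 9.17, 9.20 and 9.18 in SSC, against 9.84, 9.70 and 9.67 in ESC. All SSC values lay below all ESC values, with a difference of −0.55 ± 0.11 (SE, adjusted p = 0.000669). Its dimmer probe ran the opposite way and is given with the other such probes below. Srsf1, the founding SR protein, and Srsf10, a splicing repressor when dephosphorylated, were not called. Srsf1 had 11.17, 11.46 and 11.51 in SSC, against 11.17, 11.16 and 11.13 in ESC. SSC replicate 1 matched the ESC arrays and the other SSC arrays were above them, and the difference was 0.23 with a 95% interval of −0.046 to 0.50. Srsf1 was called without SSC replicate 1 (0.34), from the authors' processed table (0.22) and without background correction (0.22). Srsf10 had 5 kept probes, none called, and its brightest read 7.22, 6.94 and 6.90 in SSC, against 7.10, 6.86 and 7.29 in ESC. The groups overlapped, with an interval of −0.37 to 0.25.

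**Figure D3:**
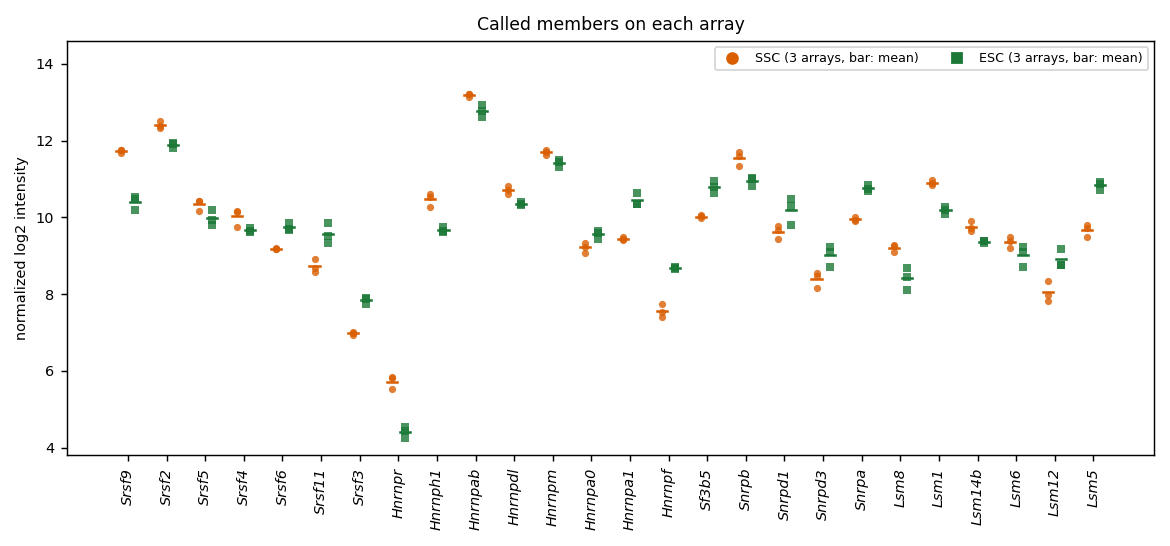
Normalized log2 intensity (vertical axis) of the 26 called genes on each array, with SSC as circles on the left and ESC as squares on the right of each gene, and a bar at the mean of the 3 arrays. Srsf9, Hnrnpf and Lsm5 show wide gaps, the ESC values of Hnrnpr lie at background, and the groups overlap for Srsf5 and Lsm6.

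Among hnRNP genes most were not called. Of 17 measured, 5 were higher in SSC, 3 lower and 9 not called, and the median was −0.11, where 74.4% of all genes were called. Under scaling on array medians 3 were higher and 4 lower. Hnrnpr, an RNA-binding protein related to Syncrip, had 4 probes, of which the 3 tied to RefSeq transcripts were detected on 0 arrays of either group. Its values rest on the other probe, tied to another kind of accession and detected on 3 SSC arrays and 0 ESC arrays. That probe read 5.52, 5.81 and 5.83 in SSC, against 4.42, 4.25 and 4.54 in ESC. These ESC values lie at background, so the difference is given as at least 1.64-fold higher in SSC, with a fitted difference of 1.32 ± 0.13 (SE, adjusted p = 1.30e-06). Hnrnph1, which binds runs of G, was at 10.28, 10.61 and 10.52 in SSC, against 9.62, 9.64 and 9.75 in ESC. Every SSC array was above every ESC array, by 0.80 ± 0.13 (SE, adjusted p = 7.59e-05). The next probes of Hnrnph1 by brightness gave 0.84 and 0.64 and were called, and its 2 dimmest gave 0.014 and −0.047 and were not.

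Hnrnpab, a protein of transcription and RNA binding, was bright on every array, at 13.13, 13.20 and 13.22 in SSC, against 12.92, 12.78 and 12.62 in ESC. The groups did not overlap and differed by 0.41 ± 0.12 (SE, adjusted p = 0.00777), yet the value turned to −0.23 under scaling on array medians and to −0.51 when its 2 kept probes were averaged. Hnrnpdl, a relative of Hnrnpd, had 10.71, 10.82 and 10.59 in SSC, against 10.36, 10.32 and 10.40 in ESC. The arrays separated by group, with 0.35 ± 0.12 (SE, adjusted p = 0.0159). Hnrnpm, which binds GU-rich RNA, showed 11.63, 11.71 and 11.76 in SSC, against 11.45, 11.49 and 11.30 in ESC. Its groups also separated, with 0.29 ± 0.12 (SE, adjusted p = 0.0398), and it turned to −0.073 under scaling on array medians. The call of Hnrnpdl was lost without SSC replicate 2 or ESC replicate 2 and under scaling on array medians (0.26). That of Hnrnpm was lost under cyclic loess (0.24) and without any 1 of SSC replicates 2 and 3 and ESC replicates 1, 2 and 3.

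Hnrnpf, the close relative of Hnrnph1 that binds the same G runs, went the other way. Its values were 7.53, 7.40 and 7.74 in SSC, against 8.67, 8.66 and 8.71 in ESC. All SSC arrays were below all ESC arrays, and the difference of −1.12 ± 0.12 (SE, adjusted p = 2.94e-06) is 2.17-fold. Hnrnpa1, a classic repressor of exon inclusion and a shuttling export protein, was also lower, at 9.48, 9.43 and 9.41 in SSC, against 10.35, 10.34 and 10.63 in ESC. The groups were apart by −1.00 ± 0.12 (SE, adjusted p = 8.19e-06), and its other kept probes gave −0.95 and −0.82, both called. Hnrnpa0 was a smaller case, with 9.34, 9.23 and 9.08 in SSC, against 9.43, 9.59 and 9.64 in ESC. It was lower without overlap, by −0.34 ± 0.12 (SE, adjusted p = 0.0248), and its second probe gave −0.63. Its call was lost without SSC replicate 2 or 3 or ESC replicate 2 or 3, under cyclic loess (−0.27) and under scaling on array medians (−0.28).

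The 9 hnRNP genes not called had differences of 0.260 or less in size. Hnrnpll, a regulator of splicing in lymphocytes, had the smallest difference of the 9. It measured 8.35, 8.44 and 8.38 in SSC, against 8.27, 8.30 and 8.61 in ESC. The groups overlapped, with a difference of −0.0059 and a 95% interval of −0.28 to 0.27, while a dimmer probe was called lower (−0.56), as was the mean of its probes (−0.28). Hnrnpc, which packages nascent transcripts and binds U tracts, stood at 12.87, 12.97 and 13.12 in SSC, against 12.91, 12.79 and 12.86 in ESC. It overlapped too, with an interval of −0.13 to 0.39. A dimmer probe of Hnrnpc was called lower (−0.86), and its brightest probe was called lower under scaling on array medians (−0.49), as was the mean of its probes (−0.36).

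Hnrnpk, which binds C-rich RNA, had 3 kept probes between −0.24 and −0.16, none called. Hnrnpa2b1, the partner of Hnrnpa1, was at −0.25 (interval −0.60 to 0.099). The call was made with the mean of its probes (−0.37) and without ESC replicate 1 (−0.44), an array that read 7.76 where the other ESC arrays read 8.31 and 8.39. Hnrnpl, which binds CA repeats, was at −0.13 (−0.42 to 0.16), and Hnrnpul2 at 0.21 (−0.17 to 0.60). Under scaling on array medians both were called, Hnrnpl lower (−0.39) and Hnrnpul2 higher (0.55). Hnrnpul1 was at −0.26 by its brightest probe, and was called without SSC replicate 1 (−0.37). Of its dimmer probes 2 passed the filter through SSC alone and were detected on 0 ESC arrays, so their fitted differences of 0.43 and 0.44 are against values at background. Hnrnpd (−0.18) and Hnrnph3 (−0.11) were dim, detected on 1 and 3 SSC arrays and on 2 ESC arrays each.

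The Sf3 genes encode the SF3a and SF3b parts of the U2 snRNP, which recognises the branch point, and they were the family with the fewest calls. Of 8 measured, 1 was lower in SSC, 0 were higher and 7 were not called, with differences from −0.24 to 0.090 among those 7. Sf3b5, a small subunit of SF3b, was the exception, at 10.05, 9.98 and 10.02 in SSC, against 10.64, 10.78 and 10.94 in ESC. All SSC arrays were below all ESC arrays, by −0.77 ± 0.12 (SE, adjusted p = 7.50e-05), and its other probe gave −0.89. Sf3a3 stood at 10.67, 10.83 and 10.93 in SSC, against 10.71, 10.82 and 10.74 in ESC. The groups overlapped, with an interval of −0.20 to 0.31.

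Sf3b2 read 11.05, 11.11 and 11.12 in SSC, against 11.07, 11.16 and 11.26 in ESC. It overlapped as well, with an interval of −0.31 to 0.18. Sf3a1 was at 0.090 and Sf3b4 at −0.12, and Sf3b6, the subunit that contacts the branch point adenosine, at −0.16. Dimmer probes of Sf3b4 (−0.41) and Sf3b6 (−0.58) were called lower, as were the means of their probes (−0.27 and −0.37). Sf3b3 (−0.20) was called from the authors' processed table (−0.18) and without background correction (−0.18), and Sf3b2 under scaling on array medians (−0.29). Sf3a2 was at −0.24 and detected on 2 SSC arrays and 3 ESC arrays.

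Snrp genes encode the Sm ring and proteins particular to single snRNPs. Of 7 measured, 3 were lower in SSC, 1 was higher and 3 were not called, and the median was −0.29. Snrpa, the U1 protein that binds a loop of the U1 RNA, was at 9.94, 9.89 and 10.00 in SSC, against 10.85, 10.70 and 10.74 in ESC. The groups did not overlap and differed by −0.82 ± 0.11 (SE, adjusted p = 2.55e-05), and its other probe gave −0.71. Of the Sm ring, Snrpd3 read 8.55, 8.15 and 8.48 in SSC, against 8.70, 9.08 and 9.23 in ESC. SSC lay below ESC throughout, by −0.61 ± 0.16 (SE, adjusted p = 0.00347). Snrpd1 measured 9.77, 9.43 and 9.68 in SSC, against 9.80, 10.30 and 10.48 in ESC. Its highest SSC array was just under its lowest ESC array, the difference was −0.57 ± 0.17 (SE, adjusted p = 0.00814), and its second probe gave −0.72.

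Snrpb, whose products are the Sm proteins B and B′, was higher by its brightest probe. It showed 11.59, 11.33 and 11.70 in SSC, against 10.81, 11.00 and 11.02 in ESC. Every SSC array was above every ESC array, by 0.60 ± 0.13 (SE, adjusted p = 0.00109). Snrpf and Snrpg, also of the ring, were not called. Snrpf stood at 10.79, 10.30 and 10.72 in SSC, against 10.44, 10.59 and 10.71 in ESC. Snrpg was at 10.51, 10.17 and 10.34 in SSC, against 9.92, 10.38 and 10.58 in ESC. Both overlapped, with intervals of −0.29 to 0.34 for Snrpf and −0.31 to 0.40 for Snrpg. Snrpd2 was at −0.29 (−0.64 to 0.059) and was called lower without ESC replicate 1 (−0.45) and under scaling on array medians (−0.65). The measured members of the one Sm ring therefore held 2 genes called lower, 1 called higher and 3 not called.

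Lsm proteins form a nuclear ring on the U6 RNA and a cytoplasmic ring that takes part in mRNA decapping. Of 11 measured genes, 4 were higher in SSC, 2 lower and 5 not called, and the median was −0.16. Lsm1, the subunit particular to the cytoplasmic ring, was higher, at 10.97, 10.83 and 10.88 in SSC, against 10.20, 10.28 and 10.08 in ESC. The groups were apart by 0.71 ± 0.12 (SE, adjusted p = 0.000107). Lsm8, which takes its place in the nuclear ring, was higher as well, at 9.27, 9.10 and 9.24 in SSC, against 8.12, 8.44 and 8.68 in ESC. It had no overlap either, with a difference of 0.79 ± 0.15 (SE, adjusted p = 0.000291). Lsm14b, related to the P-body protein Lsm14a, had 9.91, 9.72 and 9.64 in SSC, against 9.38, 9.33 and 9.39 in ESC. Its SSC arrays all exceeded its ESC arrays, by 0.39 ± 0.12 (SE, adjusted p = 0.00993).

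Lsm5, shared by both rings, had the largest difference toward lower values in SSC. It read 9.79, 9.71 and 9.49 in SSC, against 10.93, 10.86 and 10.71 in ESC. No SSC array came near an ESC array, and the difference was −1.17 ± 0.13 (SE, adjusted p = 2.60e-06), or 2.24-fold. Lsm12, a member outside the rings, was lower on all 4 of its kept probes, which ranged from −1.33 to −0.54. Its brightest read 7.81, 7.98 and 8.33 in SSC, against 9.17, 8.76 and 8.77 in ESC. The groups did not overlap, with −0.86 ± 0.16 (SE, adjusted p = 0.000303). Lsm6, also of both rings, was at 9.49, 9.20 and 9.38 in SSC, against 8.71, 9.09 and 9.22 in ESC. SSC replicate 2 lay below ESC replicate 3, and the difference was 0.35 ± 0.15 (SE, adjusted p = 0.0487). Without SSC replicate 1 another probe of Lsm6 was the brightest and the value was −0.42, and the call was lost without SSC replicate 3 and without ESC replicate 1 or 2.

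Of the Lsm genes not called, Lsm14a, a P-body protein, stood at 9.69, 9.61 and 9.60 in SSC, against 9.86, 9.84 and 9.68 in ESC. Lsm10, a subunit of the U7 snRNP of histone mRNA processing, was at 8.71, 8.44 and 8.62 in SSC, against 8.71, 8.70 and 8.86 in ESC. Both overlapped between groups, with intervals of −0.41 to 0.086 for Lsm14a and −0.43 to 0.097 for Lsm10. Lsm2 (−0.27), Lsm3 (−0.19) and Lsm4 (0.19), of both rings, had intervals that include 0. A dimmer probe of Lsm2 was called lower (−0.69), and Lsm2 was called without ESC replicate 1 (−0.47) and with the mean of its probes (−0.48). Of the 5 measured genes shared by both rings, Lsm5 was thus lower, Lsm6 higher by its brightest probe, and Lsm2, Lsm3 and Lsm4 not called.

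**Figure D4:**
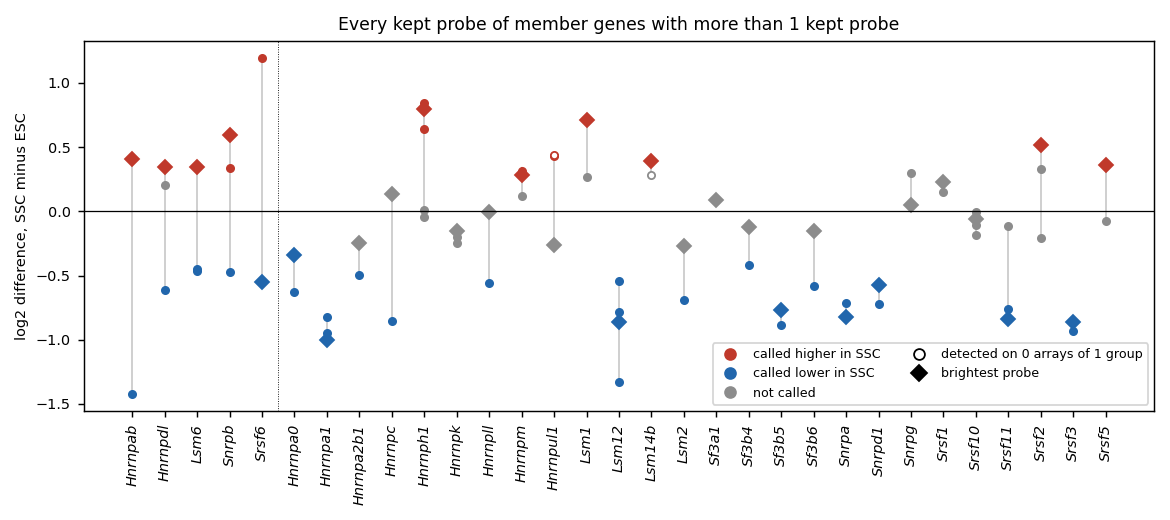
Log2 difference, SSC minus ESC (vertical axis), of every kept probe of the 31 genes that have several, coloured by call, with the brightest probe as a diamond and open points for probes detected on 0 ESC arrays. The 5 genes left of the dotted line have kept probes called in opposite directions, widest for Hnrnpab (0.41 and −1.43) and Srsf6 (−0.55 and 1.20).

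Probes of the same gene did not always move together. Several kept probes were available for 31 genes, and in 5 of these (16.1%) probes were called in both directions, against 5.93% of 3561 such genes overall. Which transcript each probe reads, and whether related gene copies add to its signal, was not tested. The dimmer probe of Hnrnpab read 5.54, 5.60 and 5.54 in SSC, against 7.08, 7.05 and 6.83 in ESC. It was lower in SSC without overlap, by −1.43 ± 0.12 (SE, adjusted p = 2.11e-07), while the bright probe was higher. The dimmer probe of Srsf6 showed 7.27, 7.05 and 6.91 in SSC, against 5.71, 5.91 and 6.02 in ESC. It was higher without overlap, by 1.20 ± 0.13 (SE, adjusted p = 3.50e-06). In both genes the platform annotation ties the brightest probe to a RefSeq transcript and the dimmer one to another kind of accession.

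Snrpb had a second probe called higher (0.34) and another called lower, which read 8.03, 7.59 and 8.05 in SSC, against 8.01, 8.56 and 8.52 in ESC. The values overlapped, and the difference was −0.47 ± 0.17 (SE, adjusted p = 0.0244). Of the 3 kept probes of Hnrnpdl, the middle one was not called (0.20) and the dimmest read 7.52, 7.74 and 7.36 in SSC, against 8.15, 8.13 and 8.17 in ESC. That probe was lower without overlap, by −0.61 ± 0.13 (SE, adjusted p = 0.000692). Lsm6 had 2 further probes, both called lower. The brighter of them was at 8.80, 8.90 and 8.89 in SSC, against 9.41, 9.29 and 9.22 in ESC. It did not overlap, with −0.45 ± 0.12 (SE, adjusted p = 0.00363), and the dimmest gave −0.46. With the mean of kept probes, Srsf6 was called higher (0.32) and Hnrnpab lower (−0.51), and Hnrnpdl (−0.020), Lsm6 (−0.19) and Snrpb (0.16) were not called.

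Beyond the set, the rest of the splicing machinery gave 128 measured genes in 8 lists, and these lists leaned in different directions. With 37.9% of all genes higher and 36.5% lower, a list with calls in both directions is usual. Factors of snRNP assembly, the SMN complex and its helpers, were mostly lower in SSC: 10 of 14 measured were lower, 1 was higher and 3 were not called, and the median was −0.54, against 36.5% of all genes lower and a median of 0.00364. Gemin6 (−1.80), Coil, the Cajal body protein coilin (−1.55), and Gemin2, the partner of SMN (−1.34), had the largest differences, and Gemin7 was higher (0.36). The call of Gemin7 was lost without SSC replicate 1 or 3 and without ESC replicate 1 or 2. Tri-snRNP and minor spliceosome genes were lower for 11 of 18, higher for 2 and not called for 5, with a median of −0.44. Snrnp27 (−0.90), Txnl4a (−0.80) and the helicase gene Snrnp200 (−0.60), which unwinds U4 from U6, were lower. Snrnp48 of the minor spliceosome was higher (0.67), as was Usp39 (0.41), whose call was lost without SSC replicate 2 or ESC replicate 2.

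Prp19 complex and catalytic step genes were lower for 9 of 20, higher for 4 and not called for 7, with a median of −0.28. The intron-binding helicase Aqr fell by 2.08 (SE 0.19), with its 3 kept probes from −2.08 to −0.89. Bcas2 was lower (−1.00), and Dhx16, detected on 1 of 3 SSC arrays, had a fitted difference of −1.58. Prpf19, the ubiquitin ligase that names the complex, was higher (0.54, but 0.27 and not called with the mean of its probes), as were Bud31 (0.46) and Plrg1 (0.38), the last without a call under scaling on array medians (0.29) and when SSC replicate 2 or ESC replicate 2 was left out. The list for U1 snRNP and associated factors had 3 higher, 3 lower and 2 not called, among them Luc7l3 (1.24), Prpf40b (0.73) and Tia1 (0.55) higher, and Luc7l2 (−0.61), Snrnp70 (−0.39) and Rbm25, detected on 2 of 3 SSC arrays (−1.48), lower. Kept probes of Tia1 ranged from −0.24 to 2.63, those of Luc7l2 from −0.61 to 0.34 and those of Snrnp70 from −0.39 to 0.30. With the mean of kept probes the calls of Luc7l2 (−0.22) and Snrnp70 (−0.049) were lost, that of Snrnp70 also under scaling on array medians (−0.058).

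Branch point and acceptor site factors also split, with 3 of 10 higher, 3 lower and 4 not called. U2af1, which reads the AG of the acceptor site, was lower (−1.50), as were the helicase Dhx15 (−0.69) and U2af2, which binds the polypyrimidine tract (−0.53, but −0.22 and not called under scaling on array medians). Htatsf1 (1.02), Cherp (0.49) and Puf60 (1.15) were higher, but the kept probes of Puf60 ranged from −1.97 to 1.15. In the exon junction complex and export list, 5 of 12 were higher, 5 lower and 2 not called. Casc3 (0.73), Ddx39b (0.62) and Thoc2 (0.54) were higher and Srrm1 (−1.03), Rnps1 (−0.82) and Thoc5 (−0.75) lower. The call of Ddx39b was lost under scaling on array medians (0.12). The call of Thoc2 was lost without SSC replicate 2 or 3 or ESC replicate 2, where it was 0.28.

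Kinases of SR proteins and SR-related proteins leaned toward SSC, with 7 of 13 higher, 2 lower and 4 not called, and a median of 0.38, against 37.9% of all genes higher. Srpk2, an SR protein kinase, was higher by a difference of 1.05 (SE 0.12), and Clk3 was higher (0.61). The 7 also count Srpk3, which passed the filter through SSC alone and was undetected on every ESC array. Its fitted difference of 0.67 is against values at background, and at its bound of 1.01-fold hardly any difference is left. Tnpo3, which imports SR proteins into the nucleus, was lower (−0.70), as was Tra2b (−0.33), whose call was lost under scaling on array medians (−0.14), under cyclic loess (−0.29), without SSC replicate 2 or 3 and without ESC replicate 2 or 3. Other regulators of alternative splicing had 10 of 33 higher, 10 lower and 13 not called. The 10 higher count Rbfox1, which was undetected on every ESC array and passed the filter through SSC alone, with a bound of 2.49-fold. They also count Ptbp1, whose 10 kept probes ranged from −1.17 to 1.06. The largest differences of this list were those of Celf2, Mbnl1 and Rbm4. Celf2 was higher by 3.30 (SE 0.15), with kept probes from 1.65 to 3.30, Mbnl1 by 2.31 (SE 0.13) and Rbm4 by 1.77 (SE 0.12). Lower were Elavl3 (−1.43), Tardbp, which represses cryptic exons (−1.27), and Pcbp1 (−1.09). All the genes named in these 8 lists had limma adjusted p-values of 0.0355 or less.

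**Figure D5:**
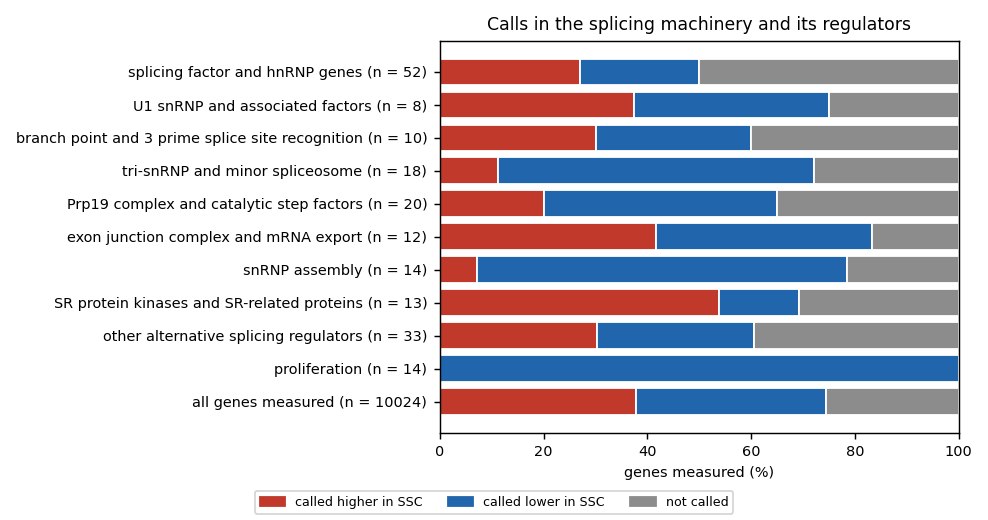
Share of measured genes (horizontal axis, percent) called higher in SSC (red), called lower (blue) and not called (grey) for the 52 splicing factor and hnRNP genes, the 8 other splicing lists, proliferation genes and all 10024 genes measured. The grey part is 50% for the 52 genes, the widest bar of grey shown, and 71.4% of the snRNP assembly genes are blue.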

How the data were processed

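Total RNA of 3 SSC and 3 ESC samples was hybridised to 1-colour Illumina arrays of 45281 probes, 1 array each, and groups and replicate numbers come from the sample titles. The authors deposited intensity values, a linear mean brightness for every probe on every array, with neither normalization between arrays nor background subtraction, and a detection p-value beside each. The software was GenomeStudio, per the submitters' processing notes, which give no version. Another table the authors deposited holds processed intensity values with nearly equal quantiles and column medians of 107.09 to 107.14. The sources used here do not give how it was made, and it served as an alternative. Between 16505 and 17211 probes were detected on SSC arrays and between 15242 and 15613 on ESC arrays. Correlations over kept probes were 0.989 to 0.993 within a group and 0.784 to 0.795 between groups. Precision is limited by the 3 arrays per group, for which an exact permutation test of a single gene could not fall below a p of 0.10.

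Background was corrected by normexp inferred from the detection p-values (offset 16), followed by quantile normalization and log2 in limma 3.58.1 (R 4.3.3). Probes with a detection p under 0.01 on at least 3 arrays were kept (17435 probes, 10024 genes) and fitted with lmFit and eBayes without covariates. The Benjamini-Hochberg adjustment took in every kept probe, and a call is an adjusted p under 0.05. A gene is its kept probe with the highest mean. The platform annotation gave 34885 probes 1 symbol, 18 several and 10378 none. Gene identifiers matched the RefSeq table of GRCm38.p6 for 34807, with 0 changes of symbol. Where no array of a group detected a probe, the fold is a bound against the higher of its own value and the lowest detected value. Promoter windows are RefSeq's.

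The members, the lists and the tests were chosen with earlier results of these data known. Values on every array are given, per family, for up to 5 called genes in the direction of most calls, up to 3 against it, up to 2 not called and detected on all arrays, and for probes called in opposite directions. In the other lists up to 3 called genes per direction are named, and Rbfox1 and Ptbp1 besides, for their detection and their probes. Alternatives for the values were the processed table, cyclic loess, scaling on array medians and no background correction. For the probes they were a detection limit of 0.05, detection on all 6 arrays, no filter and the mean of kept probes. For the fit they were a replicate block, a robust trended prior, a threshold of 0.01 and leaving out each sample. The fit was tested on simulated data for SSC against ESC, with 200 of 17435 probes changed. It recovered 18.2% of changes of 0.5 on the log2 scale, 70.1% of changes of 1 and 95.5% of changes of 2, and called 0 unchanged probes. In the data 74.4% of genes were called, a far larger share than was changed in the simulation. The adjustment is looser there, so these recovery shares do not describe the calls above.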

Additional observations from a re-analysis of the deposited data

How the results depend on the processing

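Of the 26 called genes, 15 kept their direction and call under every alternative that measured them. That was all 17 for Srsf9, Srsf3, Srsf11, Hnrnpf, Hnrnpa1, Hnrnph1, Sf3b5, Snrpa, Snrpd3, Lsm1, Lsm5, Lsm8, Lsm12 and Lsm14b. For Hnrnpr it was 13 of 17. Its probe was detected on SSC arrays alone, so the filter removed it whenever an SSC replicate was left out. Detection on every array removed it as well. Whether the call of Hnrnpr holds without any SSC replicate was therefore not tested. The other 11 called genes lost the call or turned in at least 1 alternative. The count higher in SSC, 14, was 9 with the mean of kept probes, where 18 were lower, and 9 at an adjusted p under 0.01, and between 9 and 13 with a sample left out. The count lower, 12, was 11 to 15 with a sample left out. Genes called at least 2-fold numbered 4, and 2 without background correction or from the authors' processed table. Scaling on array medians turned Hnrnpab (−0.23), Hnrnpc (−0.49, called) and Hnrnpm (−0.073), where all genes had a median of 0.19. The mean of kept probes turned Srsf6 (0.32), Hnrnpab (−0.51), Hnrnpc (−0.36), Hnrnpdl (−0.020), Lsm6 (−0.19) and, outside the set, Puf60 (−0.082), since it adds probes that move the other way. With a sample left out, Lsm6 lay between −0.42 and 0.45, the lowest without SSC replicate 1, where another probe was the brightest. A change of sign in a gene called in neither setting was not counted as a turn. The cause of the changes under scaling was not tested. With the replicate number as a block, 24 of the set's genes were called and the calls of Hnrnpm (adjusted p = 0.0682) and Lsm6 (adjusted p = 0.0543) were lost. No pairing by number was seen: same-numbered samples deviated from their group means with correlations of −0.14, −0.068 and 0.030, and 1 of 3 SSC samples was closest to its own number. The labels do not say whether same-numbered samples belong together, and so few values cannot exclude it. For 8 genes no probe passed the detection filter, and they were not compared.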
